A study of Mus musculus with 9 samples.

Results

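The 10 immediate-early genes Fos, Fosb, Jun, Junb, Egr1, Egr2, Egr4, Arc, Npas4 and Nr4a1 were followed in the substantia nigra of methylphenidate-treated mice. They were taken by gene symbol from the annotation of the array platform, where 12 probe sets name 1 of them, 1 each for 8 genes and 2 each for Jun and Egr2. None of these probe sets names a second gene. The 10 genes stand among 17097 genes named by single-gene probe sets, and the arrays hold 45037 probe sets after removal of the controls. For a gene with 2 probe sets, the one with the higher mean over all arrays represents the gene.

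Swiss Webster mice, an outbred stock, were injected intraperitoneally with saline or with methylphenidate (MPH, a blocker of the dopamine and noradrenaline transporters) at 1 or 10 mg/kg. Injections were given once a day on a school-week schedule, from the juvenile period, after a week of acclimation, into adulthood. After a drug-free week all 3 groups were decapitated under deep anesthesia, so every animal, controls included, had been injected, handled and anesthetized. RNA of the dissected region was hybridized to 3 arrays per group, and the question was which mRNAs of the nigra differ after chronic MPH. Each group thus has n = 3 arrays. Whether an array holds RNA of a single animal or of several is not stated, so the p-values below measure only the spread between these arrays, which may in part be technical. Doses are given as the sample labels have them. The gene lists published with the study pair the 2 doses with the arrays the other way round, and nothing in the expression values settles which is right, so each statement on dose holds for the labelled groups.

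Immediate-early genes are transcribed within minutes of a stimulus from factors already present in the cell, without new protein synthesis. In neurons, calcium entry and cAMP signaling act through kinases on CREB and on the serum response factor, which sit on the promoters of these genes. Most of the products are transcription factors, and their mRNAs are short-lived, so the levels follow recent activity, handling or injury. In the basal ganglia, a single dose of a psychostimulant is known for inducing Fos, Egr1 and Arc in the striatum.

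The promoters are shown because the cAMP response element (CRE), bound by CREB, is the sequence through which many of these genes are switched on together. RefSeq windows (GRCm38.p6) of 300 bases, 250 before and 50 after the transcription start, were given for 8 of the 10 genes, and for none of Arc and Egr1. The CRE core TGACG, or CGTCA on the other strand, was found in the window of 7 of the 8 genes (Fos, Fosb, Junb, Egr2, Egr4, Npas4 and Nr4a1) and not in that of Jun. Over all 32851 windows the share with a core was 20.8%, and 23% of all genes had a core in any of their windows. The full element TGACGTCA was in 0 of the 8 (1.79% of all windows, 2.03% of genes), as was the AP-1 site TGANTCA (7.81% of all windows, 8.97% of genes). A CArG box, the site of serum response factor, was found in Egr2 and in no other of the 8, against 1.63% of all windows and 1.81% of genes. A match describes these letters in these windows and does not show that a factor binds there. Sequence outside the windows was not searched, so a missing match does not show that a gene lacks the site. The 250 bases before the start are printed for 4 of the genes with higher values in the arrays of the 10 mg/kg label, with the CRE cores in capitals. They lie at chr12:85473640-85473889 on the plus strand for Fos, chr6:85513590-85513839 on the minus strand for Egr4, chr19:4989972-4990221 on the minus strand for Npas4 and chr15:101266596-101266845 on the plus strand for Nr4a1, and all are written 5′ to 3′ along the gene.
Fos: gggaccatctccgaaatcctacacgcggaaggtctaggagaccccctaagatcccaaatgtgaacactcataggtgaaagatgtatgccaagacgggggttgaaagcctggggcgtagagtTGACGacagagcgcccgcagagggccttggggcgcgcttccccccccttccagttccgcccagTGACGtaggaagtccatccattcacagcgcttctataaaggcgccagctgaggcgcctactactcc
Egr4: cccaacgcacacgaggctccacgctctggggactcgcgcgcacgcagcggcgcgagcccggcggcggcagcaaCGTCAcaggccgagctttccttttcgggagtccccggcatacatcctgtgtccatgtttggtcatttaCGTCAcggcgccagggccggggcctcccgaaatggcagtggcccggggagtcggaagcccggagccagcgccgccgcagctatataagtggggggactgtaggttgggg
Npas4: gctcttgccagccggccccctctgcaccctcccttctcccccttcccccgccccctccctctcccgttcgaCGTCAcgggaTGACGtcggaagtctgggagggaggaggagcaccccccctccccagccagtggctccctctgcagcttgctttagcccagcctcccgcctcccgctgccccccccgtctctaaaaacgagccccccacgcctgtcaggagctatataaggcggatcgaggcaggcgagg
Nr4a1: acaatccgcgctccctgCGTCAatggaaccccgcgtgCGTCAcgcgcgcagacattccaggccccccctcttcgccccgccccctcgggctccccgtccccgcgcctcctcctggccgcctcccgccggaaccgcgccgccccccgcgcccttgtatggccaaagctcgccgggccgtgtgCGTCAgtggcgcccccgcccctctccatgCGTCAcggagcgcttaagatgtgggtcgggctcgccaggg

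**Figure D1:**
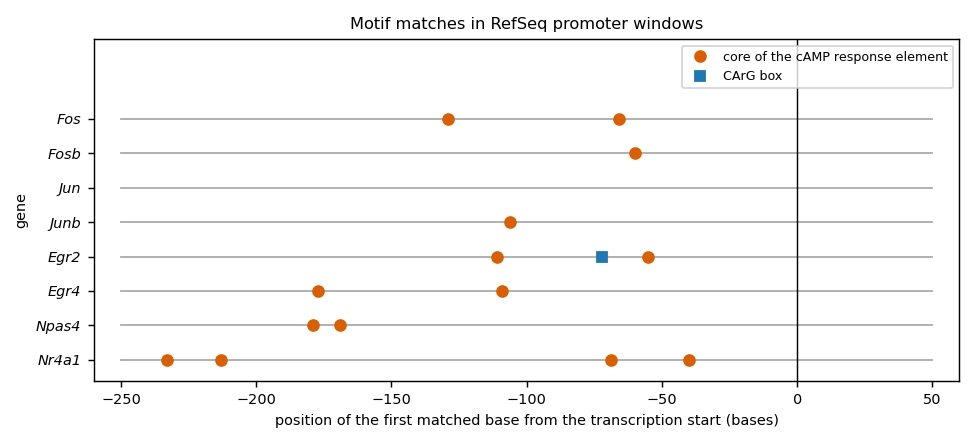
Positions of CRE cores (circles) and CArG boxes (square) in the RefSeq promoter windows of 8 immediate-early genes, in bases from the transcription start (vertical line at 0). Each gray line is a window of 300 bases, Nr4a1 holds 4 cores at -233, -213, -69 and -40, and the Jun window holds none; of the 5 windows listed for Egr2, 1 is drawn.

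CRE cores started at -129 and -66 in Fos, at -177 and -109 in Egr4, at -179 and -169 in Npas4, at -60 in Fosb and at -106 in Junb. In Npas4 the pair lies 10 bases apart on opposite strands, as the plot of motif positions shows.

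Th, the rate-limiting enzyme of dopamine synthesis, and Slc6a3, the dopamine transporter, were high in every array (log2 10.31 or more). The mean of the 12 dopamine neuron markers was 0.415 to 0.501 log2 units under the saline mean in each of the 6 MPH arrays, and 11 of the 12 had a negative difference at the 1 mg/kg label and 12 of the 12 at the 10 mg/kg label. Replicate 1 of the 10 mg/kg label stood apart: it had the highest value of the 9 arrays in 8 of the 9 measured markers of cortical and hippocampal excitatory neurons, and its mean over these markers was 1.059 above saline, against 0.105 and 0.094 in replicates 2 and 3 and -0.224 to 0.19 in the other groups. In log2 of the summed level, these 9 markers ranged from 9.19 to 9.33 in saline, 9.49 to 9.65 at the 1 mg/kg label and 9.34 to 9.95 at the 10 mg/kg label. In this array the mean of the 6 microglial markers was at -0.446 from saline and that of the 6 measured oligodendrocyte markers at -0.369. Thalamic markers were highest in the arrays of the 1 mg/kg label (mean 0.901 to 1.189), but they also varied within saline (-0.722 to 0.447) and the 10 mg/kg label (-0.237 to 0.736). The serotonin neuron marker Tph2 was between 4.24 and 7.47 in saline and between 3.20 and 5.21 in the MPH arrays. The log2 difference between the 3′ and the 5′ control probe sets of Actb, a measure of RNA integrity, was 0.882 to 0.934 in saline and 1.03 to 1.19 in the MPH arrays. The same measure for Gapdh overlapped, at 0.231 to 0.387 in saline and 0.224 to 0.409 in the MPH arrays. In bulk tissue, fewer cells of a type and less RNA per cell cannot be told apart. The part of dissection and RNA quality in the results below was not tested.

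In the arrays of the 10 mg/kg label, 9 of the 10 immediate-early genes had a mean above saline, with a median log2 fold change of 0.34, whereas the median over all probe sets was -0.01 and 47.7% of them were above 0. For 8 genes (Fos, Jun, Junb, Egr1, Egr4, Arc, Npas4 and Nr4a1) every array of the 10 mg/kg label lay above every saline array, which held for 10.3% of all probe sets. With limma and the replicate number as a block, 7 of the 10 were higher at an unadjusted p of 0.05 (4.08% of all probe sets) and none lower (5.51%), and none passed the threshold of 0.05 after Benjamini-Hochberg adjustment over all 45037 probe sets, where 0% of all probe sets did. This count depended on single arrays of both groups: it was 1, 2 and 4 without saline replicates 1, 2 and 3, and 0 without replicate 1 of the 10 mg/kg label. Without the block, the same 7 genes reached the unadjusted threshold (7.76% of all probe sets), and again none passed adjustment (0.255% of all probe sets), with adjusted p from 0.126 for Egr4 to 0.712 for Egr2. The 1 mg/kg label gave a different picture, with 5 genes above and 5 below saline (48.6% of all probe sets were above) and a median of 0.00687.

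**Figure D2:**
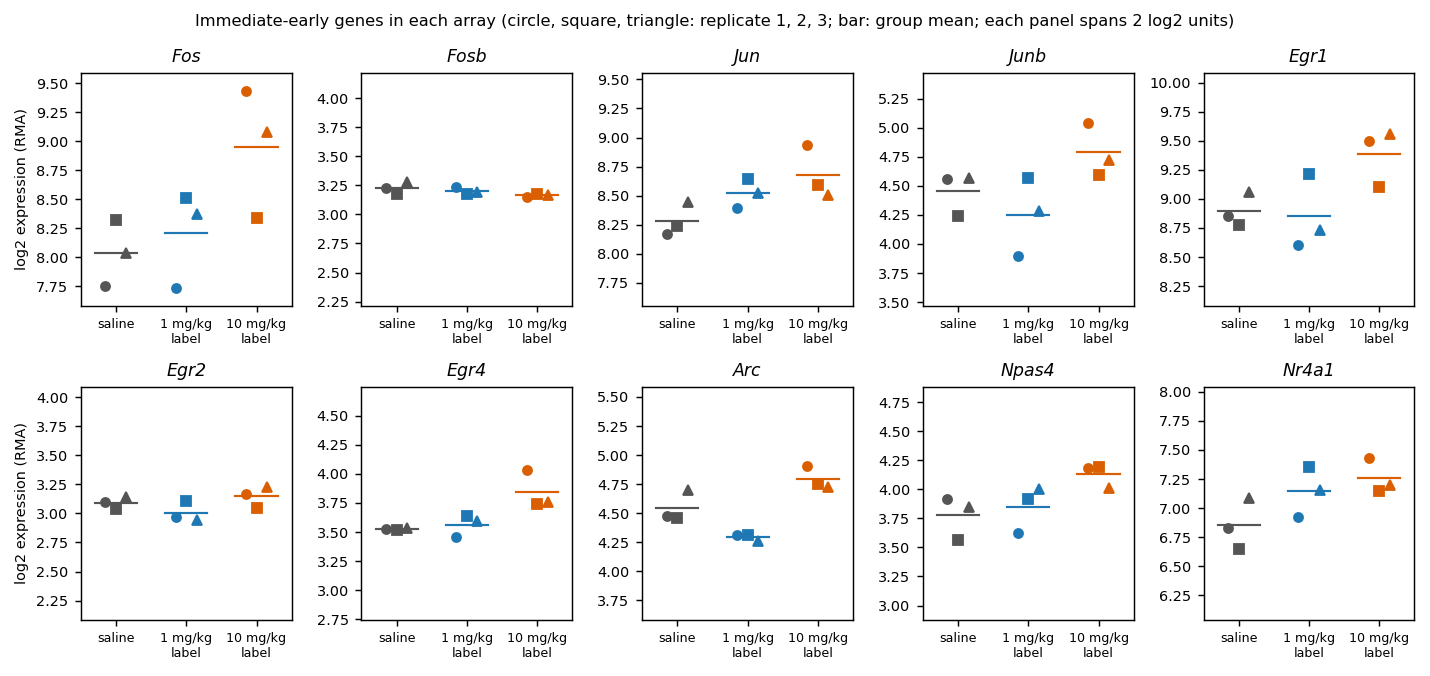
Log2 expression (RMA) of the 10 immediate-early genes in each of the 9 arrays, by group, with circle, square and triangle for replicates 1, 2 and 3 and a bar for the group mean; every panel spans 2 log2 units. For Fos the arrays of the 10 mg/kg label (8.34 to 9.43) sit above the saline arrays (7.76 to 8.32), whereas Fosb stays between 3.15 and 3.28 in all arrays.

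Fos and Jun family members pair to form the AP-1 transcription factor. Fos, the most widely used marker of neuronal activation, was measured at log2 7.76, 8.32 and 8.04 in the saline arrays, 7.73, 8.51 and 8.38 at the 1 mg/kg label and 9.43, 8.34 and 9.08 at the 10 mg/kg label. Replicates 1 and 3 of the 10 mg/kg label stood clear of all others, and replicate 2 was only just above the highest saline array and below 2 arrays of the 1 mg/kg label. The group means were 8.04 ± 0.28, 8.21 ± 0.42 and 8.95 ± 0.56 (SD, n = 3 each). Fos had the largest fold difference of the 10 genes, 1.88-fold between the 10 mg/kg label and saline (log2 0.91, SE 0.32, 95% interval 0.18 to 1.65; limma adjusted p = 0.466, unadjusted p = 0.0216). At the 1 mg/kg label the difference from saline was 0.17 (SE 0.32, limma adjusted p = 0.88).

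Fosb, whose truncated product accumulates in the striatum under repeated drug exposure, gave 3.22, 3.18 and 3.28 in saline, 3.23, 3.18 and 3.19 at the 1 mg/kg label and 3.15, 3.17 and 3.17 at the 10 mg/kg label. It was the 1 member with a negative difference at the 10 mg/kg label (-0.06, SE 0.07, limma adjusted p = 0.795), and its arrays there all lay below saline, as did 13.1% of all probe sets. The nonspecific control probe sets had means up to 3.59 at their 95th percentile, so the Fosb probe set was not above background in this tissue and neither spliced form can be followed with it. Egr2 was likewise at the level of these controls. Egr4 was above it at the 10 mg/kg label (mean 3.84) and below it in saline and at the 1 mg/kg label (means 3.53 and 3.56), and the other 7 members had means above it in all 3 groups. Among them, Npas4 was the closest to it. The highest mean of a single nonspecific control probe set was 5.07, which is above all group means of Junb, Arc and Npas4.

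Jun, the main partner of Fos, was at 8.17, 8.24 and 8.44 in saline, 8.39, 8.65 and 8.52 at the 1 mg/kg label and 8.94, 8.59 and 8.50 at the 10 mg/kg label. All arrays of the 10 mg/kg label were above saline, and those of the 1 mg/kg label overlapped with both groups. The difference between the 10 mg/kg label and saline was 0.39 (SE 0.14, 95% interval 0.06 to 0.72; limma adjusted p = 0.474). The second Jun probe set had the same sign with a smaller difference and overlapping groups (0.31, SE 0.20, limma adjusted p = 0.627). Junb, a related AP-1 subunit that often opposes Jun, was at 4.56, 4.24 and 4.56 in saline, 3.89, 4.56 and 4.28 at the 1 mg/kg label and 5.04, 4.59 and 4.72 at the 10 mg/kg label. The 3 arrays of the 10 mg/kg label were the highest of the 9, but the 95% interval of the difference from saline included 0 (0.33, SE 0.20, -0.13 to 0.80; limma adjusted p = 0.61).

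The Egr genes encode zinc finger transcription factors. Egr1, which is induced by synaptic activity in much of the forebrain, was at 8.86, 8.78 and 9.06 in saline, 8.61, 9.22 and 8.73 at the 1 mg/kg label and 9.50, 9.10 and 9.56 at the 10 mg/kg label. Replicates 1 and 3 of the 10 mg/kg label were the 2 highest arrays, and replicate 2 lay below replicate 2 of the 1 mg/kg label. The difference from saline was 1.40-fold (log2 0.49, SE 0.19, 95% interval 0.05 to 0.93; limma adjusted p = 0.494).

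Egr4 had the smallest p of the 10 genes in this comparison. Its saline arrays were at 3.53, 3.52 and 3.53, those of the 1 mg/kg label at 3.46, 3.64 and 3.59, and those of the 10 mg/kg label at 4.03, 3.74 and 3.76. The saline arrays were almost identical (SD 0.01, n = 3), and they and the mean of the 1 mg/kg label lay below the 95th percentile of the nonspecific controls (3.59), so their level cannot be told apart from background. The difference between the 10 mg/kg label and saline was 0.32 (SE 0.10, 95% interval 0.08 to 0.55; limma adjusted p = 0.448, unadjusted p = 0.0151), which is a difference from a background level and not a measured fold of Egr4 mRNA. Egr2, better known for its role in myelinating Schwann cells, was between 2.94 and 3.23 in the 9 arrays, and its 2 probe sets did not follow each other (r = -0.06 over 9 arrays, against 0.845 for the 2 probe sets of Jun).

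Npas4 is induced by calcium entry and, among the 10, is the one most selective for neuronal activity. It was at 3.92, 3.57 and 3.84 in saline, 3.62, 3.92 and 4.0 at the 1 mg/kg label and 4.18, 4.19 and 4.01 at the 10 mg/kg label. Replicate 2 of saline lay below the 95th percentile of the nonspecific controls (3.59), and replicate 1 of the 1 mg/kg label just above it. The arrays of the 10 mg/kg label were the 3 highest of the 9, although the lowest of them was only just above replicate 3 of the 1 mg/kg label. The difference from saline was 0.35 (SE 0.14, 95% interval 0.04 to 0.67; limma adjusted p = 0.494). Nr4a1, an orphan nuclear receptor, was at 6.83, 6.65 and 7.09 in saline, 6.92, 7.36 and 7.15 at the 1 mg/kg label and 7.43, 7.15 and 7.20 at the 10 mg/kg label. Both MPH groups had higher means than saline, by 0.29 at the 1 mg/kg label (SE 0.15, limma adjusted p = 0.557) and 0.41 at the 10 mg/kg label (SE 0.15, limma adjusted p = 0.492), and only the latter did not overlap with saline.

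Arc is the 1 member that is not a transcription factor. Its mRNA is carried into dendrites, where the protein promotes the removal of AMPA receptors from synapses. Arc was at 4.47, 4.46 and 4.70 in saline, 4.31, 4.31 and 4.26 at the 1 mg/kg label and 4.91, 4.76 and 4.72 at the 10 mg/kg label. The 3 groups did not overlap, with the 1 mg/kg label lowest, saline in the middle and the 10 mg/kg label highest, although replicate 3 of the 10 mg/kg label was only just above replicate 3 of saline. The difference from saline was -0.25 at the 1 mg/kg label (SE 0.09, 95% interval -0.47 to -0.03; limma adjusted p = 0.449) and 0.25 at the 10 mg/kg label (SE 0.09, 95% interval 0.03 to 0.47; limma adjusted p = 0.484). Both differences share the saline arrays. Arc was the 1 member lower at an unadjusted p of 0.05 at the 1 mg/kg label (unadjusted p = 0.0301, against 5.77% of all probe sets lower) and the 1 member whose arrays there all lay below saline, as did 12.4% of all probe sets. None was higher at that threshold (4.53% of all probe sets), and none passed limma's adjusted threshold with the block (0% of all probe sets) or without it (0.12% of all probe sets).

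**Figure D3:**
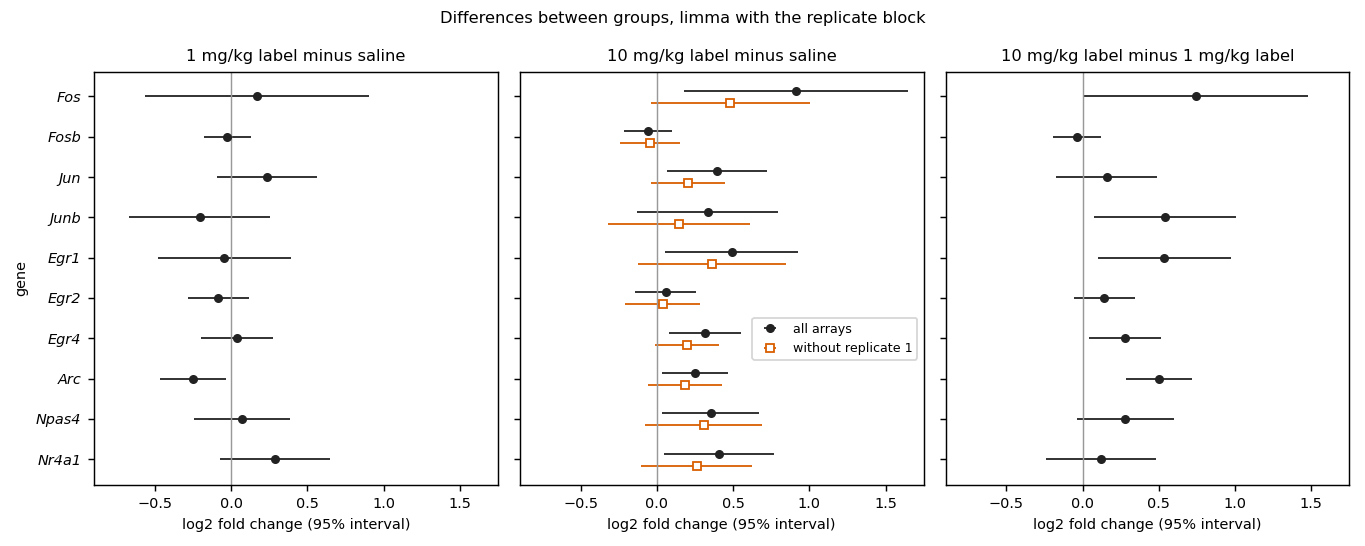
Log2 fold change with 95% interval of each immediate-early gene in the 3 comparisons (limma with the replicate block, filled circles), and of the 10 mg/kg label against saline without its replicate 1 (open squares). In that comparison 7 intervals lie above 0 with all arrays and none without replicate 1, where Fos moves from 0.91 to 0.48. The plain difference of the group means for Fos without replicate 1 was 0.67, so the block accounts for part of that move.

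The 2 labelled doses were also set against each other. Of the 10 genes, 9 had a higher mean at the 10 mg/kg label than at the 1 mg/kg label, with a median log2 difference of 0.28, while 49.7% of all probe sets were above 0. Fosb was the exception at -0.04, and its arrays there lay below those of the 1 mg/kg label, as did 9.44% of all probe sets. At an unadjusted p of 0.05, 5 genes were higher (Fos, Junb, Egr1, Egr4 and Arc, against 3% of all probe sets) and none was lower (3.39%). Without the block 6 were higher, Npas4 being the sixth (6.07% of all probe sets), and none passed the adjusted threshold in limma with or without the block, where 0% of all probe sets did. The arrays of Junb, Egr4, Arc and Npas4 did not overlap between the doses, which held for 8.72% of all probe sets. Arc had the largest difference relative to its error (0.50, SE 0.09, 95% interval 0.28 to 0.72; limma adjusted p = 0.774, unadjusted p = 0.000828, adjusted p = 0.109 without the block). For Jun and Nr4a1, the doses differed by 0.16 (SE 0.14, 95% interval -0.17 to 0.49) and 0.12 (SE 0.15, 95% interval -0.24 to 0.48).

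Replicate 1 of the 10 mg/kg label, the array with the high cortical and hippocampal markers, held the highest value of the 9 arrays in 6 of the 10 immediate-early genes (Fos, Jun, Junb, Egr4, Arc and Nr4a1), against 13.3% of all probe sets. It exceeded the mean of the other 8 arrays by 1.16 for Fos, 0.62 for Junb and 0.51 for Egr1. The largest excesses in the marker list were 2.05 for the telencephalic adhesion molecule Icam5 and 1.81 for the transcription factor Neurod6. In the same list Tbr1 was at 0.16, and Cux2 went the other way at -0.47, with its lowest value of the 9 arrays in this one. Egr1 and Egr2 were highest in replicate 3 (9.65% of all probe sets) and Npas4 in replicate 2 (8.12%) of the same group, where the marker means were close to those of the other groups. Replicate 1 was only just below them in Egr1 (9.50 against 9.56), Egr2 (3.17 against 3.23, at the level of the controls) and Npas4 (4.18 against 4.19).

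Without replicate 1 all differences from saline were smaller in size, and no gene reached an unadjusted p of 0.05 in limma with the block (3.49% of all probe sets were higher at it). The median was 0.199, and 9 of the 10 genes had a positive difference, as had 48.9% of all probe sets. Fos was at 0.48 (95% interval -0.04 to 1.00; limma adjusted p = 0.641), Egr1 at 0.36 (-0.13 to 0.85; adjusted p = 0.701), Npas4 at 0.31 (-0.08 to 0.69; adjusted p = 0.676) and Arc at 0.18 (-0.06 to 0.43; adjusted p = 0.698). With this array left out, the block itself also shifts these estimates. Plain differences of the group means were larger, at 0.67 for Fos, 0.43 for Egr1, 0.33 for Npas4 and 0.19 for Arc. They were still smaller than with all arrays. In the 8 genes whose 3 arrays all lay above saline, replicates 2 and 3 do so by construction, which is no separate result (15.9% of all probe sets with 2 arrays). In limma without the block, 5 genes (Fos, Jun, Egr4, Arc and Npas4) were higher at an unadjusted p of 0.05 without this array (6.27% of all probe sets), and none passed adjustment. Between the doses, 7 of the 10 genes had a positive difference without this array (51% of all probe sets), while the absence of overlap in Junb, Egr4, Arc and Npas4 is fixed by the 3 arrays together and is no separate result (13.8% of all probe sets with 2 arrays). Arc was the 1 gene higher at an unadjusted p of 0.05 with the block (2.92% of all probe sets), at 0.43 (limma adjusted p = 0.829, unadjusted p = 0.00401), and without the block 3 were (4.94%).

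**Figure D4:**
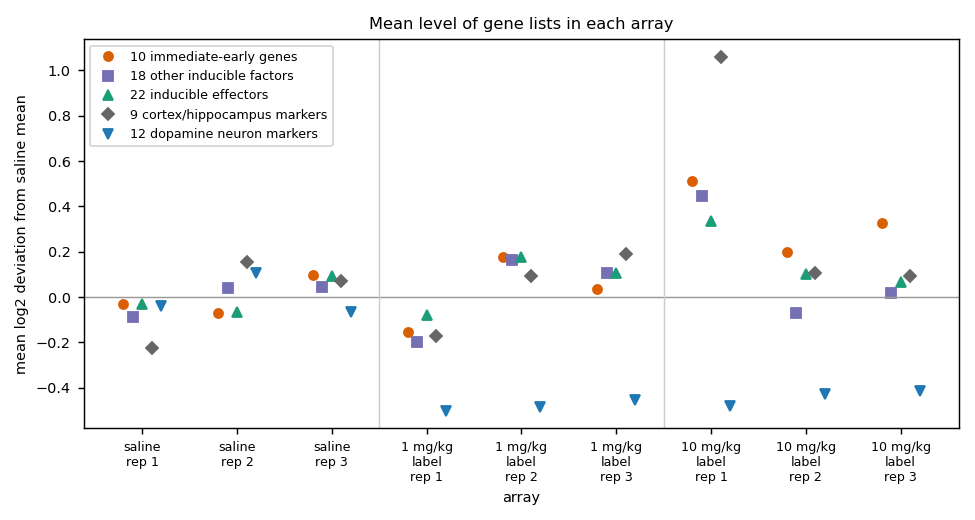
Mean log2 deviation from the saline mean of 5 gene lists in each of the 9 arrays. The immediate-early genes (circles) were at 0.511, 0.198 and 0.327 in the arrays of the 10 mg/kg label and between -0.154 and 0.176 in the others; the cortical and hippocampal markers (diamonds) reached 1.059 in replicate 1 of the 10 mg/kg label.

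The mean over the 10 genes placed the 3 arrays of the 10 mg/kg label above the 6 others, although replicate 2 of that label (0.198) was close to replicate 2 of the 1 mg/kg label (0.176). Within the 1 mg/kg label the arrays were spread from -0.154 to 0.176, and replicate 1 held the lowest value of the 9 arrays in 4 genes (Fos, Junb, Egr1 and Egr4), as in 8.79% of all probe sets.

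Other inducible transcription factors share signaling inputs with the 10. Of 18 such genes, 11 were above and 7 below saline at the 10 mg/kg label (47.7% of all probe sets were above), with a median of 0.05, and of -0.09 without replicate 1. Jund, the AP-1 subunit that is expressed steadily, was lower at an unadjusted p of 0.05, with -0.22 (SE 0.07, limma adjusted p = 0.454). It was the only one of the 18, close to the 5.51% of all probe sets that were lower, and none was higher (4.08%). The Jund arrays were at 10.61, 10.61 and 10.41 in saline and 10.37, 10.28 and 10.31 at the 10 mg/kg label. Klf4 (0.45, SE 0.20), Klf2 (0.45, SE 0.26) and Fosl1 (-0.15, SE 0.08) followed by p. Fosl2 and Nr4a3 were higher in replicate 1 of the 10 mg/kg label than in the mean of the other 8 arrays by 2.09 and 2.25. At the 1 mg/kg label 11 were above and 7 below saline (48.6% of all probe sets were above), with a median of 0.05. The lowest p there was that of Nr4a2, a factor that dopamine neurons need for their identity, at -0.71 (SE 0.27, limma adjusted p = 0.452), and the next were Myc (0.18), Jund (-0.13) and Klf4 (0.34). The dopamine neuron markers described above had a median of -0.48 at the 1 mg/kg label and -0.45 at the 10 mg/kg label. At the 10 mg/kg label the lowest difference among the 18 factors was -0.28, so Nr4a2 was not as low there.

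Inducible effectors and feedback genes act downstream of the same signals. Of 22 measured genes, 20 were above saline at the 10 mg/kg label (47.7% of all probe sets) with a median of 0.17, and 3 were higher at an unadjusted p of 0.05 (Nab2, Homer1 and Dusp4, against 4.08% of all probe sets). Without replicate 1 the count above saline was 15 and the median 0.06. Nab2, a corepressor that Egr factors induce and that binds them in turn, was at 4.34, 4.36 and 4.49 in saline, 4.63, 4.79 and 4.65 at the 1 mg/kg label and 5.09, 4.76 and 4.82 at the 10 mg/kg label. All 6 MPH arrays lay above all saline arrays. For each label alone this held for 10.7% (1 mg/kg) and 10.3% (10 mg/kg) of all probe sets. The Nab2 differences were 0.29 at the 1 mg/kg label (SE 0.11, limma adjusted p = 0.449) and 0.49 at the 10 mg/kg label (SE 0.11, limma adjusted p = 0.387), or 0.37 without replicate 1 (limma adjusted p = 0.547). Homer1, a scaffold of the postsynaptic density with an inducible short form, was higher by 0.34 (SE 0.13), the phosphatase gene Dusp4 by 0.30 (SE 0.13), and Nab1 by 0.17 (SE 0.08), with limma adjusted p of 0.494, 0.516 and 0.531. At the 1 mg/kg label 15 of the 22 were above saline (48.6% of all probe sets) with a median of 0.12, and after Nab2 the lowest p were those of Pcsk1 (-0.48), Gadd45g (0.18) and Nptx2 (0.44).

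**Figure D5:**
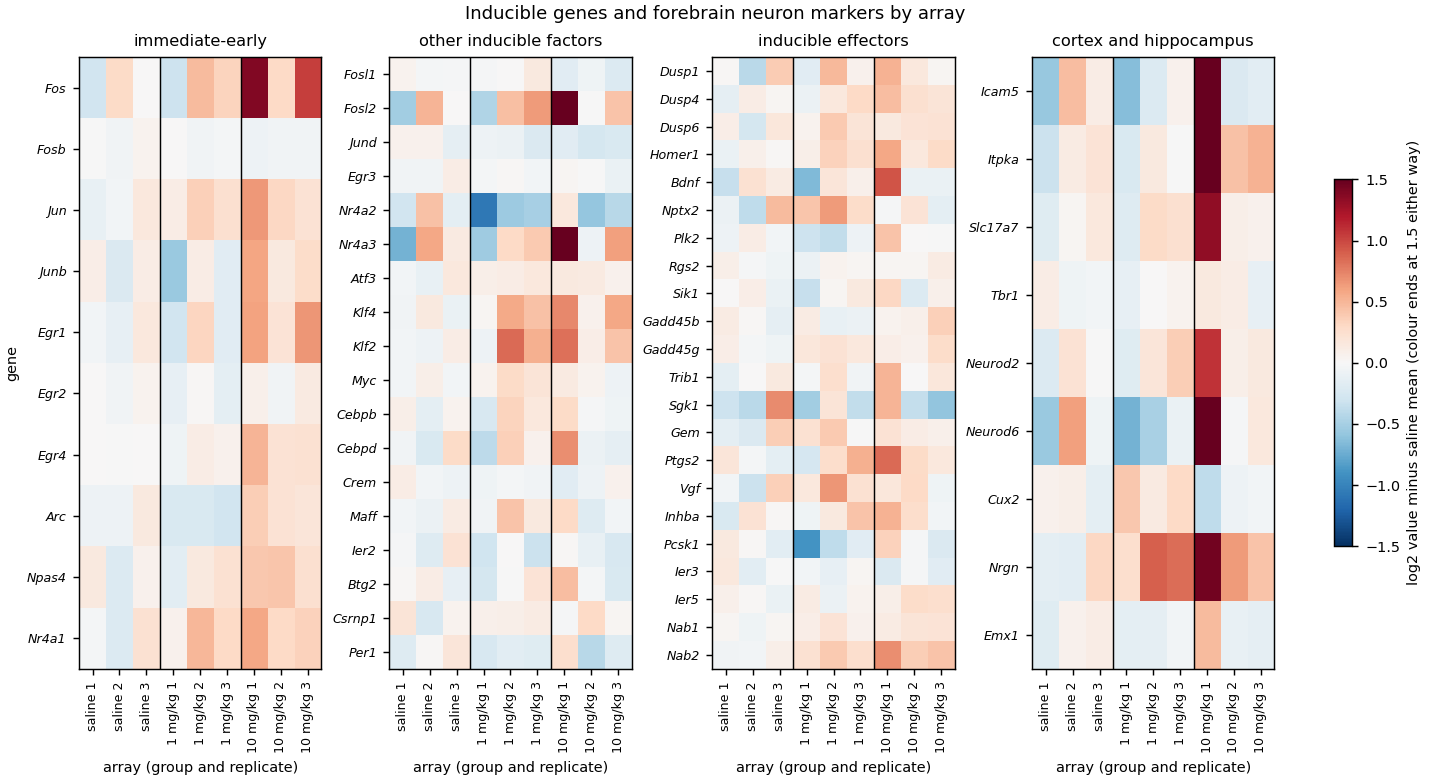
Log2 value minus the saline mean in each array for the immediate-early genes, the 2 lists of other inducible genes and the cortical and hippocampal markers; color ends at 1.5 in either direction. The column of replicate 1 of the 10 mg/kg label is the reddest in all 4 panels, and Arc is blue in all arrays of the 1 mg/kg label.

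Among 19 measured upstream regulators, which include CREB and serum response factor with their coactivators and kinases, 13 were above saline at the 10 mg/kg label (47.7% of all probe sets) with a median of 0.05. Of these, 3 were higher at an unadjusted p of 0.05 (4.08% of all probe sets), namely the calcineurin subunit gene Ppp3ca (0.24, SE 0.08), the calcium/calmodulin kinase gene Camk2a (0.53, SE 0.20), which forebrain excitatory neurons express strongly, and the factor Mef2c (0.45, SE 0.17), with limma adjusted p of 0.441, 0.492 and 0.499, and Camk2b came next at -0.25. Replicate 1 of the 10 mg/kg label exceeded the mean of the other 8 arrays by 0.84 for Camk2a, 0.37 for Mef2c and 0.18 for Ppp3ca. Without this replicate the count above saline was 12 and the median 0.05. At the 1 mg/kg label 11 were above and 8 below saline (48.6% of all probe sets were above), and Camk2b (-0.35, SE 0.11), Mef2a (0.31, SE 0.10), Mrtfa (-0.23, SE 0.10) and Crtc1 (-0.25, SE 0.11) had the lowest p. Creb1 and Srf themselves differed from saline by 0.16 (SE 0.14) and 0.02 (SE 0.13) at the 10 mg/kg label. No gene of the 3 lists passed the adjusted threshold with or without the block.

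Across all single-gene probe sets outside the 10 genes (28886), the pattern most like the members' mean over the 9 arrays was that of Tbck (Pearson r = 0.971, 0.942 without replicate 1 of the 10 mg/kg label), Bcl7a (0.969 and 0.948), the potassium channel gene Kcnd3 (0.963 and 0.928), Diaph2 (0.963 and 0.937) and Rbm20 (0.961 and 0.95). With 9 arrays and this many probe sets such values are a description, and the arrays share their group differences and marker shifts. Within the members, Egr4 (0.943) and Egr1 (0.913) had the highest r with the mean of the other 9 genes over the 9 arrays, and Fosb had a negative r of -0.593.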

How the data were processed

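RNA of the substantia nigra was measured on 9 Affymetrix HT MG-430 PM arrays, 3 per group. The authors deposited log2 expression values made with Robust Multichip Average (RMA), whose version is not given in the sources used here. The methods describe a ComBat correction for the 3 replicates. The deposited values behave as already centred by replicate number: the block term reached an unadjusted p of 0.05 in 0.00888% of probe sets, far under the share that this threshold gives by chance, and arrays of the same number had negatively correlated deviations (r from -0.626 to -0.132), as such centring forces. Quantile normalization in RMA forces 1 distribution on all arrays, and low values are compressed toward background. Of 45141 probe sets, 104 controls were left out. The platform annotation names 1 gene for 28898, several for 551 and none for 15588.

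Linear models were fitted to the 45037 remaining probe sets in R 4.3.3 with limma 3.58.1 (lmFit and eBayes), with terms for group and, as an additive block, replicate number, after the script was tested on simulated data. P-values are 2-sided and were adjusted by the Benjamini-Hochberg method over all probe sets, with a threshold of 0.05. The block follows the methods, which name a batch of the 3 replicates. The correlations above cannot show whether the numbers mark a batch, and p-values without the block count degrees of freedom that the centring had used, so they are too small. The number of arrays limits the precision. The members, the gene lists and the rule for named genes (up to 4 per list with the smallest p in each comparison with saline) were chosen with earlier results of these data known. Promoter windows were searched on both strands. Alternatives are listed in the closing section.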

Additional observations from a re-analysis of the deposited data

How the results depend on the processing

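Over 515 values of single genes under the alternatives, none was called, 502 kept their direction and 13 reversed, all of them small differences (0.206 or less in size). The smallest adjusted p under any alternative was 0.109. Leaving the replicate block out gave 7 members higher than saline at an unadjusted p of 0.05 at the 10 mg/kg label, as with the block, and it changed no call. Because the values behave as already centred by replicate number, p-values without the block are too small, and the correlations between same-numbered arrays cannot show whether the numbers pair the arrays. With only the 2 groups compared in the fit, the number of members higher at an unadjusted p of 0.05 was 1 for the 1 mg/kg label against saline (0 in the reported fit) and 3 between the doses (5 in the reported fit). Among brighter probe sets, which leave 5 members, the median was 0.17 for the 1 mg/kg label and 0.50 between the doses, with 2 members higher. Without the block and without replicate 1 of the 10 mg/kg label, a combination chosen after seeing the data, 3 were higher between the doses. The mean of both Egr2 probe sets turned its difference at the 1 mg/kg label to 0.0153, from -0.08. A second quantile normalization, median centring, the intensity trend with the robust option and an adjusted threshold of 0.1 moved no count or median beyond 1.5 times or the spread of the arrays.

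Leaving out 1 array in turn, the number of members higher than saline at the 10 mg/kg label ranged from 0 to 8, with 0 without replicate 1 of that label and 1, 2 and 4 without saline replicates 1, 2 and 3, and the median from 0.199 to 0.42. For the 1 mg/kg label the count ranged from 0 to 1 (1 without saline replicate 3, replicate 1 of the 10 mg/kg label or replicate 1 of the 1 mg/kg label) and the median from -0.05 to 0.12. Between the doses the count ranged from 1 to 6, with 1 without replicate 1 of either dose and 2 without replicate 3 of the 1 mg/kg label, and the median from 0.15 to 0.36. Differences that changed sign, all at the 1 mg/kg label against saline unless stated, ranged from -0.0664 to 0.454 for Fos, -0.0442 to 0.00135 for Fosb, -0.466 to 0.0612 for Junb, -0.329 to 0.0971 for Egr1, -0.0275 to 0.139 for Egr4 and -0.0663 to 0.232 for Npas4, and between the doses from -0.0341 to 0.284 for Jun and -0.0295 to 0.306 for Nr4a1. The cause was not tested.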
